A study of Mus musculus with 10 samples.

Results

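The pore-forming alpha1 subunits of voltage-gated calcium channels were followed in motor neurons of the lumbar spinal cord, in HSA-NRTN mice and their wild-type littermates. The 8 genes Cacna1a, Cacna1b, Cacna1c, Cacna1d, Cacna1e, Cacna1g, Cacna1h and Cacna1i were taken by their symbols in the deposited tables, out of 51912 genes counted, and each was matched to 1 gene identifier. In HSA-NRTN mice the human skeletal actin promoter, which is active in muscle fibres, drives neurturin, a trophic factor of the GDNF family. Transgene expression was not examined here, and motor neuron libraries do not check expression in muscle. Each genotype had 5 mice, 3 female and 2 male, with 1 library per mouse, and no age is given in the sources used here. Each library was a pool of about 50 cell bodies cut by laser from 12 µm cross-sections, from cells above 200 µm2 in area with a nucleolus in view. Axon terminals in muscle were not part of the material.

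The alpha1 subunit holds the pore, the voltage sensor and most drug sites of a calcium channel. In Cav1 and Cav2 channels, beta and alpha2delta subunits govern its traffic and gating. Cav1 channels (Cacna1c, Cacna1d) carry the L-type current, which links firing to gene expression and, in motor neurons, feeds persistent inward currents in the dendrites. Cav2 channels (Cacna1a for P/Q-type, Cacna1b for N-type, Cacna1e for R-type) admit the calcium that triggers transmitter release and that opens calcium-activated potassium channels. Cav3 channels (Cacna1g, Cacna1h, Cacna1i) carry the T-type current, which opens near the resting potential and shapes rebound and burst firing.

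Cav3 genes differ from Cav1 and Cav2 genes in the coding sequence at the selectivity filter, the ring of acidic residues that binds calcium in the pore. A stretch of 30 bases around the acidic residue of the pore loop of domain III is shown for each gene, 5′ to 3′ on the coding strand, from GENCODE M21 transcripts on GRCm38, with the codon of that residue in capitals.
Cacna1a: gtgtccacaggaGAGggctggccacaggtc
Cacna1b: gtgtccacgggaGAGgggtggcccatggtg
Cacna1e: gtctctacagggGAAggatggcctcaggtt
Cacna1c: gtctccaccttcGAAgggtggccagagctg
Cacna1d: gtctcaacttttGAGggctggcccgcgttg
Cacna1g: ctggcctccaagGATggctgggttgacatc
Cacna1h: ctgtcatccaagGATggctgggtaaacatc
Cacna1i: ttggcctccaagGATggctgggtgaacatc
The 5 Cav1 and Cav2 genes carried a glutamate codon (GAA or GAG) there, and the 3 Cav3 genes carried the aspartate codon GAT. Domain IV showed the same split, whereas domains I and II had a glutamate codon in all 8 genes. The stretch spanned an exon junction in each Cav1 and Cav2 gene and lay within 1 exon in each Cav3 gene. Over the aligned bases of the coding sequences, with gaps left out, the 7 pairs of genes within a class were 70.9% to 73.3% identical. The 21 pairs across classes were 59.4% to 66.1% identical over such bases. Stretches of 50 bases shared between members numbered 0 for each of the 5 Cav1 and Cav2 genes and 1 to 20 for the Cav3 genes. From 0% to 4.18% of the 50-base stretches of a member also occurred in some other gene.

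In GRCm38 the Cav2 genes lie at chr8:84388440-84640246 (Cacna1a, plus strand), chr2:24603887-24763152 (Cacna1b, minus strand) and chr1:154390731-154884501 (Cacna1e, minus strand). The Cav1 genes lie at chr6:118587240-119196418 (Cacna1c, minus strand) and chr14:30039939-30491455 (Cacna1d, minus strand). The Cav3 genes lie at chr11:94408391-94474198 (Cacna1g, minus strand), chr17:25374285-25433783 (Cacna1h, minus strand) and chr15:80287238-80398279 (Cacna1i, plus strand). The library kit does not mark strand, so reads from exon overlaps with genes on the opposite strand cannot be told apart for 3 members. How such reads were counted is not given in the sources used here. Exons of Cacna1d overlap those of Chdh over 589 bases, and Chdh held 89 counts in all libraries together. Cacna1a overlaps the antisense gene Gm16183 over 435 bases and Cacna1h overlaps Tpsg1 over 158 bases, and both of these partners had 0 counts.

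Libraries held 1875971 to 6641695 gene counts and 14090 to 19675 genes with a count. All 7 motor neuron markers were detected, with summed levels of 3265 to 5395 CPM (counts scaled to library size) in HSA-NRTN libraries and 2445 to 4068 CPM in wild-type libraries. All 6 astrocyte and all 5 oligodendrocyte markers had counts in both groups. Summed astrocyte markers ran from 46.4 to 748 CPM in HSA-NRTN and from 50.7 to 295 CPM in wild-type, and oligodendrocyte markers had a median of 339.8 and a maximum of 1383 CPM in HSA-NRTN, against 389 and 598 CPM in wild-type. HSA-NRTN replicate 2 had the highest sum of both lists, the fewest gene counts and the lowest share of reads counted to genes (13.5%), and wild-type replicate 1 had the highest sums of its group and the fewest genes detected. Microglia markers summed to at most 11.9 CPM, endothelial markers to at most 9.73 CPM and muscle markers to at most 1.97 CPM, with Cldn5 at 0 in every HSA-NRTN library and Tmem119 and Ckm at 0 in every wild-type library. Markers of inhibitory neurons (4 of 4 detected in both groups) reached 160 CPM in HSA-NRTN and 172 CPM in wild-type, and markers of excitatory interneurons (2 of 2 detected) reached 183 and 300 CPM. In such pools, fewer cells of a type and less RNA per cell cannot be told apart.

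Cacna1a, Cacna1b and Cacna1g were the most abundant alpha1 transcripts, and these 3 genes filled the top 3 places in each of the 10 libraries. Per kilobase of exon, Cacna1a (P/Q-type) averaged 3.86 ± 1.96 CPM per kilobase (SD, n = 10), Cacna1b (N-type) 3.82 ± 1.40 and Cacna1g (T-type) 3.22 ± 0.651. Behind them came Cacna1d at 1.15 ± 0.454, Cacna1c at 0.860 ± 0.217 and Cacna1h at 0.825 ± 0.503 CPM per kilobase. Cacna1e at 0.219 ± 0.224 and Cacna1i at 0.198 ± 0.553 CPM per kilobase were lowest. Among 16098 protein-coding genes with a count, ranked by the same per-length level, Cacna1a stood at percentile 60.2, Cacna1g at 56.8, Cacna1d at 39.5, Cacna1c at 35.5 and Cacna1e at 21.5.

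The only step in this order with an adjusted p under 0.05 (exact sign-flip permutation) lay between Cacna1g and Cacna1d. The order, and so the choice of pairs, came from the means over the same 10 libraries that were tested. Cacna1g was higher per kilobase in 10 of 10 libraries, by 1.47 ± 0.64 on the log2 scale (SD, n = 10; pseudocount 0.1; exact two-sided sign-flip permutation p = 0.00195, the smallest this design can give, adjusted p = 0.0137 over 7 pairs of neighbours). Cacna1a and Cacna1b did not differ beyond their spread (mean log2 difference -0.06, Cacna1a higher in 5 of 10 libraries, exact permutation p = 0.857, adjusted p = 0.857). Neither did Cacna1b and Cacna1g (0.19, higher in 6 of 10 libraries, exact permutation p = 0.426, adjusted p = 0.497), Cacna1d and Cacna1c (0.33, 7 of 10, exact permutation p = 0.139, adjusted p = 0.324) or Cacna1c and Cacna1h (0.28, 4 of 10, exact permutation p = 0.344, adjusted p = 0.481). Cacna1h was above Cacna1e by 1.64 ± 1.61 on the log2 scale in 7 of 10 libraries, which missed the threshold after adjustment (exact permutation p = 0.0156, adjusted p = 0.0547). Cacna1e and Cacna1i did not differ beyond their spread either (0.66, 6 of 10, exact permutation p = 0.223, adjusted p = 0.390).

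**Figure D1:**
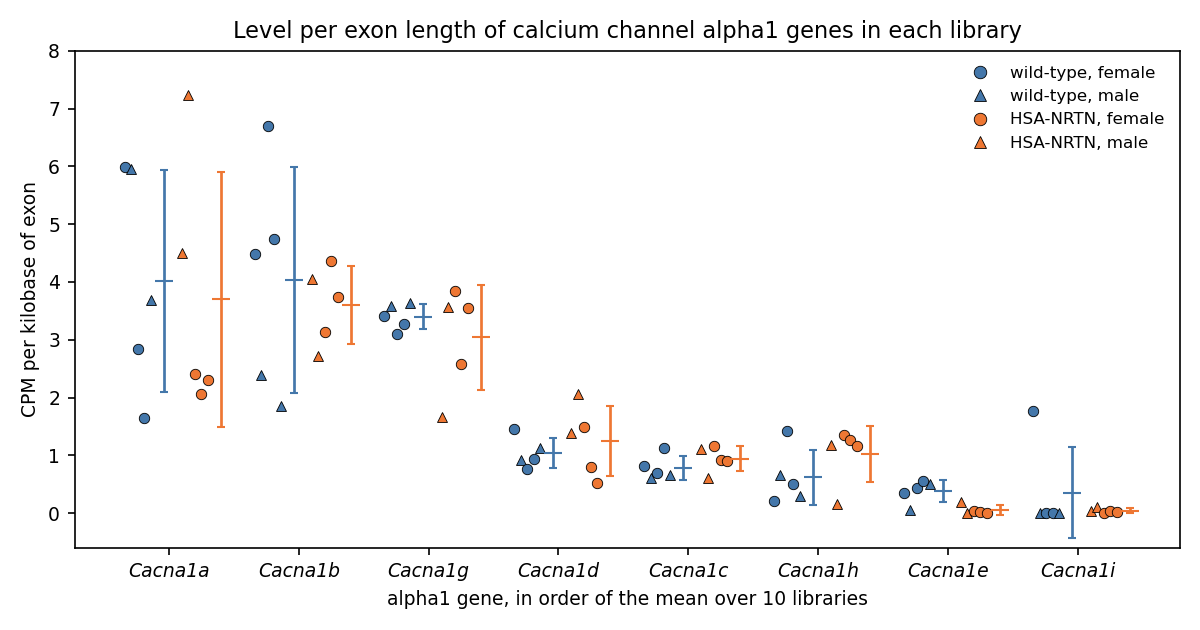
Level of each alpha1 gene in CPM per kilobase of exon in every library, in order of the mean over 10 libraries; circles are females, triangles males, and bars give the mean ± SD of each genotype (n = 5). Cacna1a, Cacna1b and Cacna1g lie above the other 5 genes in every library, and the Cacna1i mean in wild-type rests on 1 library.

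By class, Cav2 genes made up 55.3 ± 6.60% of the summed alpha1 level per kilobase (SD, n = 10), Cav3 genes 30.4 ± 5.84% and Cav1 genes 14.3 ± 3.32%. The sum itself was 13.7 ± 1.80 CPM per kilobase in HSA-NRTN and 14.6 ± 2.67 in wild-type (SD, n = 5 each). Cav1 took 15.9 ± 3.14% in HSA-NRTN and 12.7 ± 2.94% in wild-type, Cav2 53.4 ± 8.34% and 57.2 ± 4.40%, and Cav3 30.7 ± 8.53% and 30.1 ± 1.98%. The ranges of the 2 genotypes overlapped for each class. The Cav3 share ran from 20.4% to 38.8% across HSA-NRTN libraries and from 28.3% to 33.5% across wild-type libraries. In wild-type replicate 1 the Cav3 share of 29.2% included 9.56% from Cacna1i and 18.5% from Cacna1g. The other wild-type libraries had no counts of Cacna1i, so the narrow wild-type range rests in part on that library.

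**Figure D2:**
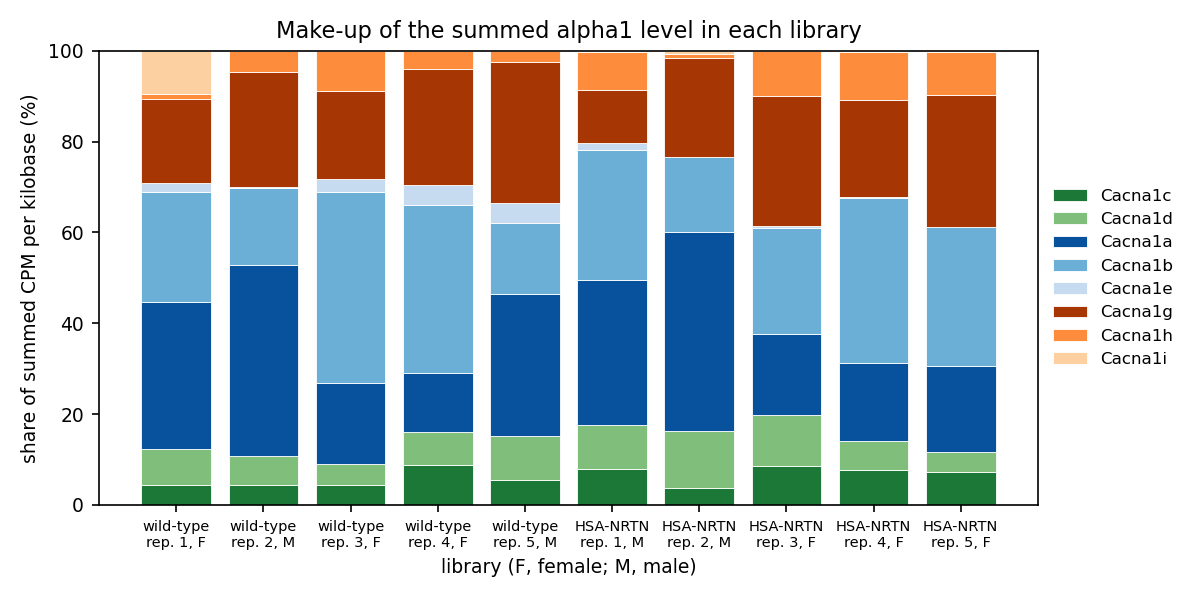
Share of each alpha1 gene in the summed CPM per kilobase of each library, in percent, with greens for Cav1, blues for Cav2 and reds to oranges for Cav3 genes. Cav2 is the largest class in each library, and Cacna1i is visible in wild-type replicate 1, where it holds 9.56%.

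The genotype comparison asks how neurturin made by muscle relates to the transcripts of the motor neurons that innervate it. By edgeR's quasi-likelihood test with Benjamini-Hochberg adjustment over 11630 genes, none of the 7 alpha1 genes with enough counts for the fit was called at 0.05, where 0.0086% of all genes fitted were called. DESeq2 and limma voom called 0 of these genes too, against 0.8% of the 15741 genes with an adjusted p in DESeq2 and 0.0258% of all genes in limma voom. At an unadjusted p under 0.05 the edgeR count was 1 of 7, Cacna1e, against 4.83% of all genes (2.41% higher and 2.42% lower in HSA-NRTN). No alpha1 gene had all libraries of one genotype above all of the other, against 1.25% of all genes (0.645% with HSA-NRTN above and 0.602% with HSA-NRTN below). The log2 fold changes (HSA-NRTN minus wild-type) were positive for 3 genes and negative for 4, with a median of -0.13 beside -0.01 over all genes fitted.

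**Figure D3:**
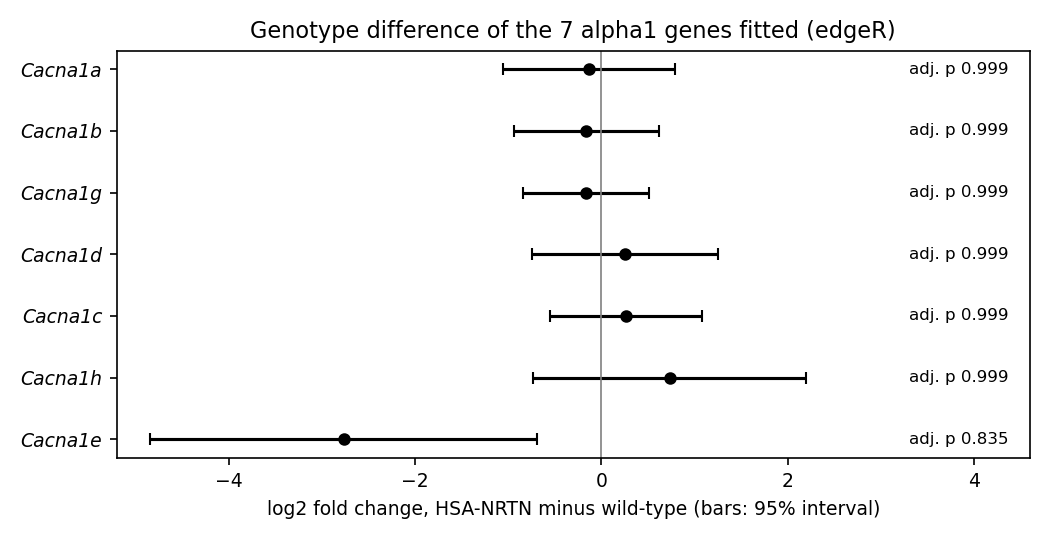
Log2 fold change (HSA-NRTN minus wild-type) with its 95% interval for the 7 alpha1 genes fitted by edgeR, n = 5 libraries per genotype, with Benjamini-Hochberg adjusted p-values at the right. Intervals of 6 genes span 0, and that of Cacna1e runs from -4.84 to -0.69 with an adjusted p of 0.835.

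Cacna1e, whose R-type channel supports dendritic and presynaptic calcium entry, had the largest log2 fold change of the 7 alpha1 genes fitted. The 5 HSA-NRTN libraries had 5.04, 0, 1.10, 0.570 and 0.247 CPM (17, 0, 6, 4 and 1 counts, replicates 1 to 5). The 5 wild-type libraries had 8.95, 1.42, 11.0, 13.9 and 12.9 CPM (39, 5, 47, 81 and 65 counts). HSA-NRTN libraries were low except replicate 1, wild-type libraries were high except replicate 2, and these exceptions made the groups overlap. In HSA-NRTN replicate 2, the shallowest library, 0 counts allow a level of up to 1.62 CPM at 3 counts. Means were 1.39 ± 2.08 and 9.64 ± 4.98 CPM (SD, n = 5 each), and the log2 fold change was -2.76 (SE 0.98, 95% interval -4.84 to -0.69). By unadjusted p (0.0124) it ranked 169 of 11630 genes, and after adjustment edgeR gave 0.835 as the adjusted p, so the difference was not called. In the authors' deposited table the log2 fold change of Cacna1e was -1.17 (SE 0.413), with DESeq2's unadjusted p of 0.00133 and adjusted p of 0.0907. DESeq2 fitted here gave -2.79 (SE 0.90), with an unadjusted p of 0.0019 and an adjusted p of 0.132. Why the deposited fold change was smaller at a similar unadjusted p was not tested, so its size cannot be set against that of edgeR.

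Within females Cacna1e did not overlap between genotypes, which was so for 2 of the 7 alpha1 genes fitted (Cacna1b and Cacna1e, both lower in HSA-NRTN) and for 11.8% of all genes fitted, with 5.49% lower in all HSA-NRTN females. Within males Cacna1e overlapped, and both libraries that made the whole groups overlap were male. The 3 HSA-NRTN females had 1.10, 0.570 and 0.247 CPM and the 3 wild-type females 8.95, 11.0 and 13.9 CPM. Females alone gave a log2 fold change of -4.05 (SE 0.93, 95% interval -6.13 to -1.97), with an adjusted p of 0.663 in edgeR. Males alone, with 5.04 and 0 CPM in HSA-NRTN and 1.42 and 12.9 CPM in wild-type, gave -1.44 (SE 1.77, 95% interval -5.43 to 2.56; adjusted p = 0.998). The difference between the sexes in this effect was 2.63 on the log2 scale (SE 1.87, unadjusted p = 0.181, adjusted p = 0.929, edgeR), so a sex-dependent effect was not shown. With both sexes but without HSA-NRTN replicate 1 the estimate was -4.09 on the log2 scale (adjusted p = 0.549, edgeR). This was the most negative estimate with 1 library left out. Leaving out each other library in turn gave -3.03 to -2.50.
Animal numbers fell into a lower and a higher run, which held the genotypes unevenly. The labels do not say what these runs stand for. In the lower run the 3 HSA-NRTN libraries averaged 2.05 CPM of Cacna1e and the 1 wild-type library had 8.95 CPM. In the higher run the 2 HSA-NRTN libraries averaged 0.408 CPM and the 4 wild-type libraries 9.82 CPM.

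**Figure D4:**
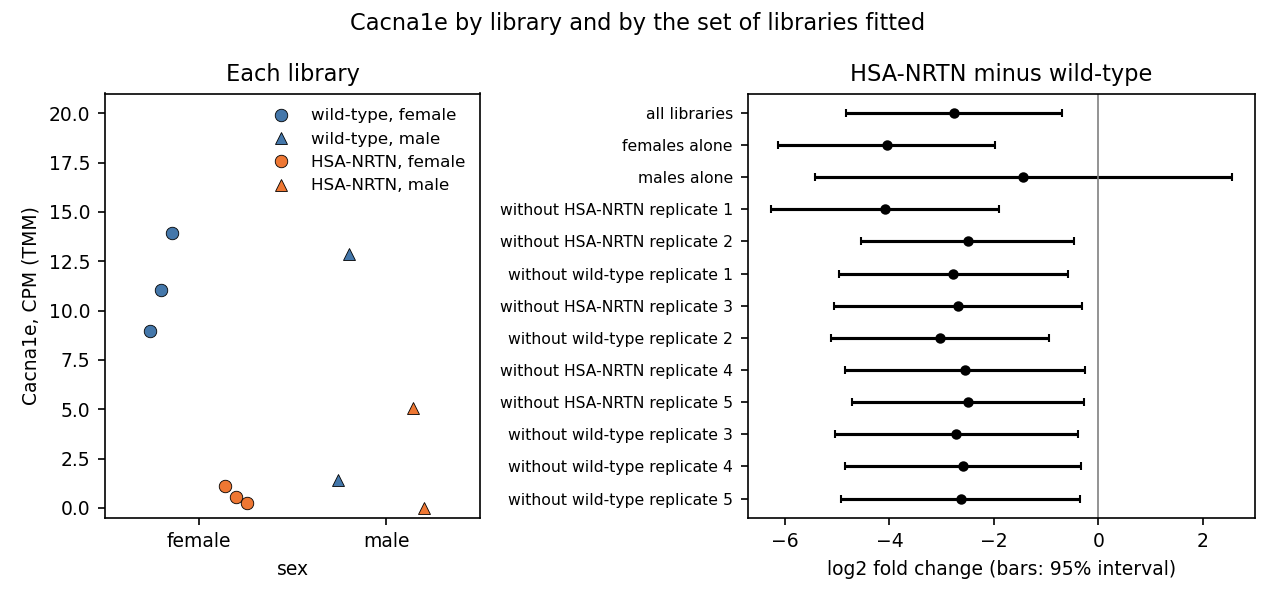
Left, Cacna1e in CPM for each library by sex and genotype; right, its log2 fold change (HSA-NRTN minus wild-type) with the 95% interval over all libraries, by sex, and with each library left out. Females of the 2 genotypes are apart at 0.247 to 1.10 and 8.95 to 13.9 CPM, while the estimate over males alone spans 0.

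The other Cav2 genes, Cacna1a and Cacna1b, had genotype differences smaller than the spread among mice. Cacna1a had 51.3, 82.7, 27.5, 23.5 and 26.4 CPM in HSA-NRTN replicates 1 to 5 and 68.4, 68.0, 32.4, 18.8 and 42.0 CPM in wild-type replicates 1 to 5. Each genotype thus held libraries above 50 CPM and below 30 CPM. Means were 42.3 ± 25.2 and 45.9 ± 22.0 CPM, and the log2 fold change was -0.13 (SE 0.43, 95% interval -1.05 to 0.80; adjusted p = 0.999, edgeR). Its highest level was in HSA-NRTN replicate 2 and the next in wild-type replicate 1, the libraries with the highest summed astrocyte and oligodendrocyte markers of their groups, and the part of those cells in the level was not tested.
Cacna1b had 40.3, 27.0, 31.1, 43.3 and 37.2 CPM in HSA-NRTN and 44.5, 23.8, 66.6, 47.2 and 18.4 CPM in wild-type. All HSA-NRTN values fell inside the wild-type range. The log2 fold change was -0.16 (SE 0.37, 95% interval -0.94 to 0.62; adjusted p = 0.999, edgeR).

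The L-type genes overlapped between genotypes. Cacna1c, whose channel couples depolarisation to transcription, had 23.4, 13.0, 24.7, 19.4 and 19.0 CPM in HSA-NRTN and 17.4, 13.0, 14.5, 23.8 and 13.9 CPM in wild-type. Values of Cacna1c ran from 13.0 to 24.7 CPM in HSA-NRTN and from 13.0 to 23.8 CPM in wild-type. The log2 fold change was 0.27 (SE 0.38, 95% interval -0.55 to 1.09; adjusted p = 0.999, edgeR). Cacna1d, whose channel opens at more negative voltages and is tied to persistent inward currents, had 17.5, 25.9, 18.9, 9.98 and 6.66 CPM in HSA-NRTN and 18.4, 11.6, 9.62, 11.9 and 14.3 CPM in wild-type. HSA-NRTN held both the highest and the lowest library, and the log2 fold change was 0.25 (SE 0.47, 95% interval -0.75 to 1.26; adjusted p = 0.999, edgeR).

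Among the T-type genes, Cacna1g varied little across wild-type mice and Cacna1i exceeded 3 counts in 1 library. Cacna1g had 16.9, 36.2, 39.0, 26.1 and 36.0 CPM in HSA-NRTN and 34.7, 36.2, 31.4, 33.2 and 36.9 CPM in wild-type. Its coefficient of variation was 20.2% over all 10 libraries, 6.45% over wild-type libraries and 29.9% over HSA-NRTN libraries, where replicate 1 was the lowest. The log2 fold change was -0.16 (SE 0.32, 95% interval -0.84 to 0.51; adjusted p = 0.999, edgeR).
Cacna1h, the T-type gene also known from sensory neurons, had 11.6, 1.62, 13.2, 12.4 and 11.3 CPM in HSA-NRTN and 2.07, 6.51, 13.8, 4.99 and 2.97 CPM in wild-type. Of the HSA-NRTN libraries 4 lay above 4 of the wild-type libraries, with HSA-NRTN replicate 2 and wild-type replicate 3 against this order. The log2 fold change was 0.73 (SE 0.69, 95% interval -0.73 to 2.20; adjusted p = 0.999, edgeR). It was 1.28 when wild-type replicate 3 was left out, 0.52 when wild-type replicate 1 was, and 0.26 when genes detected per library entered the model.
Cacna1i had 76 counts (17.4 CPM) in wild-type replicate 1 and 0 counts in the other 4 wild-type libraries, where 3 counts would be 0.516 to 0.850 CPM. The HSA-NRTN libraries had 1, 2, 0, 3 and 1 counts, or 0 to 1.08 CPM. The gene was too low in all but 1 library to enter the main edgeR fit. Fold changes from alternative fits that kept it are not given here. In the authors' deposited table its log2 fold change was -0.335 (SE 0.291), with no p-value given. In wild-type replicate 1 it was at 1.77 CPM per kilobase, above Cacna1d (1.45), Cacna1c (0.823), Cacna1e (0.355) and Cacna1h (0.212).

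Sex was compared with genotype in the model, and no alpha1 gene was called in edgeR, against 0.0086% of all genes. At an unadjusted p under 0.05 the count was 1 of 7, Cacna1a, against 11.2% of all genes. Cacna1a averaged 61.0 ± 18.0 CPM in 4 males and 32.8 ± 18.0 CPM in 6 females, a log2 difference of 0.93 (SE 0.38, unadjusted p = 0.0268, adjusted p = 0.407, edgeR). The 4 males had 42.0 to 82.7 CPM, and of the 6 females only wild-type replicate 1 was within that range. Genes detected numbered 14858 to 16255 in males, 14090 in that female and 15975 to 19675 in the other females. The part of genes detected in the Cacna1a difference between the sexes was not tested. Cacna1b ran the other way, with 27.4 ± 9.32 CPM in males and 45.0 ± 12.1 CPM in females, a log2 difference of -0.71 (SE 0.35, unadjusted p = 0.0597, adjusted p = 0.463, edgeR). The interaction of genotype with sex called 0 alpha1 genes in edgeR, with 0 at an unadjusted p under 0.05, against 0% and 5.14% of all genes.

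Across the 10 libraries the alpha1 genes showed no pairwise correlation that passed adjustment over 21 pairs. The pair of lowest p by Spearman's rho was Cacna1b with Cacna1g (rho = -0.73, permutation p = 0.0195, adjusted p = 0.351), for which r was -0.36 (permutation p = 0.308, adjusted p = 0.589) and -0.40 without the 2 libraries farthest from the median of Cacna1b. Cacna1a with Cacna1c had r = -0.62 (permutation p = 0.0621, adjusted p = 0.432) and rho = -0.68 (permutation p = 0.0334, adjusted p = 0.351), with r = -0.39 once the 2 libraries farthest from the median of Cacna1a were left out. Of 8540 genes compared by log2 CPM, those most like Cacna1a were Nudt3 (r = 0.977, n = 10), Wdr1 (0.969) and Ndel1 (0.967). Those most like Cacna1e were Dgkb (r = 0.909, n = 10), Parp6 (0.885) and Lrpap1 (0.880). These coefficients are the highest of all genes compared, over libraries that share their depth, sex and genotype with the alpha1 values, and carry no p.

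The partners of the pore were read in the same fit. Of 16 auxiliary subunit genes 12 were fitted and 0 were called, while 2 were higher and 0 lower at an unadjusted p under 0.05, against 2.41% higher and 2.42% lower of all genes fitted and 0.0086% called. The median log2 fold change was 0.22 beside -0.01 over all genes. Cacna2d1, the alpha2delta subunit that binds gabapentin and brings channels to the membrane, had 67.2 ± 46.7 CPM in HSA-NRTN and 4.89 ± 3.63 CPM in wild-type, with no overlap between the groups. The log2 difference between genotypes was 3.78 (SE 0.66), and edgeR's adjusted p of 0.0501 lay just outside the threshold. Cacng5, of the gamma subunit family, also known for acting on AMPA receptors, had 48.3 ± 23.2 and 17.8 ± 7.27 CPM, a log2 fold change of 1.44 (SE 0.45; adjusted p = 0.662, edgeR).
Of the other pore-forming genes of the family, the skeletal muscle gene Cacna1s had 0 counts in all libraries and the retinal gene Cacna1f had 6 counts in all, 5 of them in HSA-NRTN. Nalcn, the sodium leak channel, was at 174 ± 35.6 and 172 ± 58.8 CPM, with a log2 fold change of 0.02 (SE 0.27; adjusted p = 0.999, edgeR).

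Among 43 genes for channel regulators and presynaptic partners, 36 were fitted and 0 called, with 2 higher and 3 lower at an unadjusted p under 0.05, beside 2.41% and 2.42% of all genes fitted. The median log2 fold change was -0.04, beside -0.01 over all genes. Prkcb, a protein kinase C isoform, had 63.7 ± 29.6 CPM in HSA-NRTN and 196 ± 71.7 CPM in wild-type without overlap, a log2 fold change of -1.63 (SE 0.36; adjusted p = 0.239, edgeR). Its relative Prkca had 24.6 ± 13.3 and 53.4 ± 23.8 CPM, a log2 fold change of -1.11 (SE 0.42; adjusted p = 0.894, edgeR). Ppp3ca, a catalytic subunit of calcineurin, had 698 ± 405 and 1353 ± 624 CPM, a log2 fold change of -0.96 (SE 0.37; adjusted p = 0.913, edgeR). Stac2, an adaptor that slows inactivation of L-type channels, had 38.1 ± 32.7 and 12.1 ± 8.49 CPM, a log2 fold change of 1.66 (SE 0.63; adjusted p = 0.910, edgeR).
Of 14 intracellular and store-operated calcium channel genes 12 were fitted and 0 called, with 0 higher and 1 lower at an unadjusted p under 0.05, beside 2.41% and 2.42% of all genes fitted. The median log2 fold change was -0.02. The lower gene was Stim2, a calcium sensor of the endoplasmic reticulum, at 68.4 ± 18.0 and 113 ± 44.6 CPM, a log2 fold change of -0.72 (SE 0.30; adjusted p = 0.951, edgeR).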

How the data were processed

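Each of 10 Smart-seq2 libraries, fragmented with Tn5 per the labels' protocols, came from 1 mouse. The kit amplifies by PCR without molecular identifiers, so floors of 3 counts cover counting error only. The authors aligned reads with STAR 2.5.0a to GRCm38.p6 and counted them with HTSeq, per the submitters' processing notes. Neither the annotation release nor the settings of HTSeq is given in the sources used here. Raw counts, as deposited, cover 51912 genes, 92 spike-in sequences and 5 tally entries. Tally entries (57.6% to 86.5% of a library) and spike-ins were left out of library sizes. A deposited table gives a signal, the counts divided by 1 size factor per library, which was not used for tests. The authors' comparison table, deposited with log2 fold changes, a statistic as a score and p-values, came from DESeq2 per the submitters' processing notes.

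Counts were fitted with edgeR 4.0.16 in R 4.3.3 (filterByExpr, TMM, quasi-likelihood F test, Benjamini-Hochberg over 11630 genes, called under 0.05). edgeR's common biological coefficient of variation came to 0.595. Levels are CPM with TMM-scaled library sizes, divided for comparisons between genes by the union of exons in GENCODE M21. Scripts were tested on simulated data. Neighbouring levels were compared by exact sign flips in scipy 1.17.1. DESeq2 1.42.0, limma 3.58.1, other filters, scalings, covariates, lengths and library sets were alternatives. Named list genes were up to 4 of smallest unadjusted p under 0.05, and all of a list of 3. The alpha1 genes and all lists were chosen with earlier results of these data known.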

Additional observations from a re-analysis of the deposited data

Results flagged for a closer look

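Of 16 sets of 5 libraries (8 alpha1 genes in each genotype), 3 held a library set apart. Its gap to its neighbour exceeded 0.710 of the whole range. About 1 of 20 sets of normally distributed values would pass this limit. The flagged sets hold low counts or zeros, so that rate need not hold for them. Cacna1e in HSA-NRTN replicate 1, at 5.04 CPM, stood above the other HSA-NRTN libraries. Cacna1h in HSA-NRTN replicate 2, at 1.62 CPM, stood below the other HSA-NRTN libraries. Cacna1i in wild-type replicate 1, at 17.4 CPM, stood above the other wild-type libraries, which had 0 counts.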

How the results depend on the processing

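No paired analysis was possible because the labels number no replicates and tie no animals across genotypes. None of the 7 alpha1 genes in the main edgeR fit was called for genotype under any alternative. Cacna1i was left out of this account. The count of all called genes, 1 in the edgeR fit, was 81 with no filter beyond 1 count, 126 by DESeq2, 58 by DESeq2 on the genes kept for edgeR (chosen after seeing the data), 3 by limma voom, 9 with robust shrinkage, 5 with sex, 0 with the run of animal numbers and 10 with genes detected as covariates, 0 in females alone and 0 in males alone. Leaving out 1 library gave 0 to 13 (0 without wild-type replicate 2, 13 without HSA-NRTN replicate 3). The cause was not tested. Cacna1e stayed negative, with adjusted p from 0.132 (DESeq2) to 0.99996 (without HSA-NRTN replicate 5). Small genotype differences changed sign: Cacna1b 0.0015 by limma voom and 0.67 in males, Cacna1d -0.27 with run and -0.14 in females, Cacna1a 0.31 with genes detected and 0.27 in males, and Cacna1g 0.047 in females. With 1 library left out, Cacna1a ran from -0.52 to 0.056 and Cacna1b from -0.34 to 0.094. For sex, 1 to 176 genes were called with 1 library left out (176 without wild-type replicate 1), and Cacna1e ran from -1.03 to 1.28 and Cacna1g from -0.24 to 0.10. With the longest coding transcript as length, Cacna1a minus Cacna1b was 0.42 and Cacna1b minus Cacna1g -0.050, and mean levels were 1.38 (Cacna1c), 1.67 (Cacna1d) and 3.90 (Cacna1g) CPM per kilobase, with 5.56 for Cacna1a and 0.370 for Cacna1e. Cacna1a minus Cacna1b ran from -0.22 to 0.10 with 1 library left out. Cacna1g stayed above Cacna1d, with exact permutation adjusted p from 0.0137 to 0.0273. Counts per library went down to 0 for Cacna1e and Cacna1i and to 3 for Cacna1h, which limits their precision.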
